A study of Mus musculus with 10 samples.

Results

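The genes examined are those of the hormones made by the anterior and intermediate pituitary, measured in whole-brain RNA from newborn mice with 1 or 2 X chromosomes. They are prolactin (Prl), growth hormone (Gh), pro-opiomelanocortin (Pomc), the glycoprotein hormone alpha subunit (Cga) and the beta subunits of thyrotropin (Tshb), luteinising hormone (Lhb) and follicle-stimulating hormone (Fshb). All probe sets with 1 of these 7 symbols were taken, which gave 8 of the 12488 probe sets on the Affymetrix MG-U74Av2 array, which names 8251 genes by a single symbol (2 probe sets for Cga and 1 for each other gene). The genes were selected on an earlier result of these data, in which the Prl values were lower in XO than in XX brains. Prl is therefore given as a description, without a test. The values are intensities on a linear scale, scaled to a common level per array before deposit.

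Brains were taken at postnatal day 0, and 10 arrays were used. XmO animals (39 chromosomes, 1 maternal X; 3 arrays) and XX_Paf females (40 chromosomes; 3 arrays) came from the cross labelled C57BL/6J x C3H/Paf. XpO animals (39 chromosomes, 1 paternal X; 2 arrays) and XX_InX females (40 chromosomes; 2 arrays) came from the cross labelled In(X)/C3H x C57BL/6J. Comparing the crosses therefore also compares their strain and X chromosome backgrounds, and the labels give Paf and In(X) by name only. The labels do not say whether an array holds 1 animal or a pool, nor whether the pituitary was left on the brain, so the p-values measure only the spread between these arrays. Xist, the RNA of the inactive X, was between 21.3 and 49.9 on the 5 XO arrays and between 1673 and 4082 on the 5 XX arrays, as labelled. Of 8 markers of newborn brain cells, 7 were measured, and all 7 were above background on all 10 arrays. Background is taken here as the brightest of 9 Y-linked probe sets on the same array, since these animals have no Y; it ran from 33.6 to 136.6.

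The pituitary hormones are made by separate cell types. Lactotrophs make prolactin, somatotrophs growth hormone and thyrotrophs thyrotropin, and these 3 lineages depend on the transcription factor POU1F1 (Pit-1). Corticotrophs and melanotrophs make POMC, and gonadotrophs make LH and FSH, each a pair of the shared alpha subunit with its own beta subunit. Of the 7 genes, Pomc is also well known in the brain itself, in neurons of the arcuate nucleus of the hypothalamus.

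Regulatory sequence was available for 6 of the 7 genes (all but Gh) from RefSeq, build GRCm38.p6. Prl is shown because the results turn on it, and Tshb because it is another gene of a POU1F1-dependent lineage. The 250 bases before the transcript start are printed 5′ to 3′ on the gene's own strand. Capitals mark the core of the POU1F1 motif, TATNCAT, searched on both strands, and the TATA box letters TATAAA, searched on the printed strand. Prl lies on the plus strand (chr13:27057320-27057569) and Tshb on the minus strand (chr3:102782715-102782964, before a transcript start that lies inside the annotated gene).
Prl: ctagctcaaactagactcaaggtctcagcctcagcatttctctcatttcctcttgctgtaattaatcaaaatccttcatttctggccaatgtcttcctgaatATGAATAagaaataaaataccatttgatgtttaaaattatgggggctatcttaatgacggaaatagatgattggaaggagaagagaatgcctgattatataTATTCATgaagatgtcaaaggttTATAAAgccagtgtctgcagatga
Tshb: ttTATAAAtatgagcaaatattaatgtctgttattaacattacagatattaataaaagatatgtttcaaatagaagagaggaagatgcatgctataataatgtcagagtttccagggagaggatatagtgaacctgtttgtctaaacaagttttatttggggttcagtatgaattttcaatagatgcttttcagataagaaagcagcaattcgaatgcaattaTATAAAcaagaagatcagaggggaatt

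The Prl window holds the POU1F1 core at 2 places, beginning 148 and 47 bases before the start, and TATAAA at 24 bases before it. Of the 6 windows, 1 (Prl) holds the core, against 7.92% of 32851 promoter windows of the same length. TATAAA is in all 6 windows, against 7.59% of all windows. A match to a short motif is a description of the letters and does not show binding.

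Prl (chromosome 13, bases 27057570 to 27065204), the lactotroph hormone, was dim on every array and dimmer in XO brains. Its intensity was 87.9, 36.1 and 47.9 on XmO arrays 1, 2 and 7, and 126.3, 172.5 and 170.5 on XX_Paf arrays 1, 2 and 3. It was 59.6 and 72.3 on XpO arrays 15 and 18, and 112.6 and 187.5 on XX_InX arrays 1 and 19. Every XO array was below every XX array, and the nearest values were 87.9 (XmO 1) and 112.6 (XX_InX 1). These are the values for which the genes were chosen. The fitted log2 difference was -1.34 (SE 0.30) for XO against XX, -1.54 (SE 0.38) within the Paf cross and -1.15 (SE 0.47) within the In(X) cross. Of all 8695 tested probe sets, 0.150% (13) were likewise lower on all XO than on all XX arrays, and 16 were higher on all XO arrays.

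The low side of this difference lay at the background. Prl was above the brightest Y-linked probe set on all 5 XX arrays but on 2 of the 5 XO arrays (XmO 1 and XpO 15). On XX_InX 1 the margin was small, 112.6 against 102.9. In whole-tissue RNA, fewer lactotrophs, less Prl RNA per lactotroph and less pituitary left on the brain in dissection cannot be told apart. None of these was tested.

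**Figure D1:**
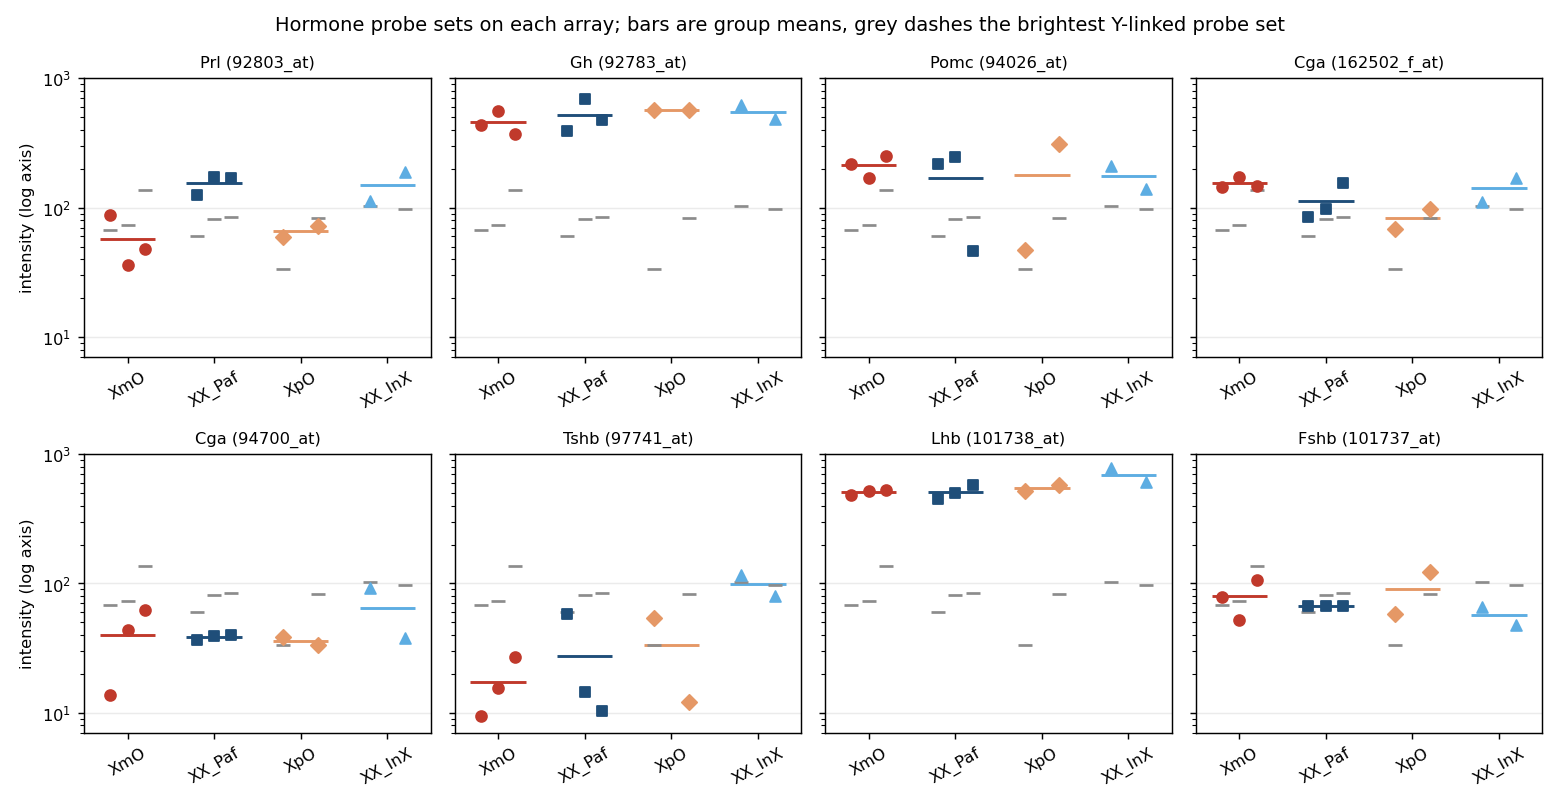
Intensity (log axis) of the 8 hormone probe sets in the 4 groups, 1 point per array, with the group mean as a bar and the brightest Y-linked probe set of each array as a grey dash. Prl separates the XO from the XX arrays, Gh and Lhb lie well above the dashes in all groups, and Tshb and the dimmer Cga probe set lie mostly below them.

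Gh (chromosome 11, bases 106300261 to 106303703) is made by somatotrophs, the cells closest to lactotrophs in lineage, and it did not separate XO from XX. Its intensity was 438.7, 555.7 and 374.9 in XmO 1, 2 and 7, and 393.6, 690.5 and 480.9 in XX_Paf 1, 2 and 3. It was 573.2 and 567.9 in XpO 15 and 18, and 620.4 and 483.0 in XX_InX 1 and 19. The XO values, from 374.9 to 573.2, overlapped the XX values, from 393.6 to 690.5. All 10 arrays were above background. The fitted ratio of XO to XX was 0.962 (95% interval 0.748 to 1.24; limma, adjusted p = 0.9995).

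Pomc (chromosome 12, bases 3954945 to 3960643), the precursor of ACTH and melanocyte-stimulating hormone, varied widely within groups. In the array order above, it was 216.5, 170.9 and 251.6 in XmO against 217.4, 248.0 and 46.4 in XX_Paf. It was 47.4 and 312.6 in XpO against 211.3 and 140.4 in XX_InX. The 2 low arrays, XX_Paf 3 (46.4) and XpO 15 (47.4), belong to different genotypes and crosses, and the other 8 lay between 140.4 and 312.6. Pomc was below background on XX_Paf 3 only. The fitted ratio of XO to XX was 1.05 with a wide interval, 0.473 to 2.31. Its direction rested on single arrays: the log2 difference of 0.07 became 0.75 without XpO 15, -0.61 without XpO 18 and -0.32 without XX_Paf 3.

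The gonadotropin and thyrotropin subunits fell into measured and barely measured genes. Lhb (chromosome 7, bases 45417608 to 45421855) was above background on all arrays. It was 507 ± 23.5 in XmO and 509 ± 60.6 in XX_Paf (SD, n = 3 each), and 547 ± 45.2 in XpO and 694 ± 123 in XX_InX (SD, n = 2 each). The Paf cross groups had almost the same mean, and both XpO arrays (515.4 and 579.3) were below both XX_InX arrays (781.1 and 607.7). The fitted ratio of XO to XX was 0.891 (95% interval 0.747 to 1.06).

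Cga (chromosome 4, bases 34893779 to 34907374), the subunit shared by TSH, LH and FSH, had probe sets that disagreed. The brighter, of a type whose probes can be shared within a sequence family, was 144.4, 174.3 and 148.5 on the XmO arrays, 85.4, 97.4 and 154.9 on the XX_Paf arrays, 69.0 and 97.8 on the XpO arrays, and 111.5 and 170.5 on the XX_InX arrays. XmO was high relative to XX_Paf, with overlap, and both XpO arrays were below both XX_InX arrays. Its estimates had opposite signs in the crosses, with a log2 difference of 0.51 (SE 0.31) in the Paf cross and -0.75 (SE 0.38) in the In(X) cross. The difference between the crosses did not pass (log2 1.26, SE 0.49; limma, adjusted p = 0.832). The direction for XO against XX, -0.12 (SE 0.25), turned to 0.04 without XX_InX 19. The dimmer probe set was at or below background on 9 of 10 arrays, with values from 13.8 to 91.5, and was not tested.

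Fshb (chromosome 2, bases 107055986 to 107059651) ranged from 47.9 to 123.1 and was above background on 4 of 10 arrays. Its group means were 79.3 ± 27.1 in XmO against 67.1 ± 0.577 in XX_Paf (SD, n = 3 each), and 90.6 ± 46.0 in XpO against 56.6 ± 12.4 in XX_InX (SD, n = 2 each). The XO and XX arrays overlapped, and the fitted ratio of XO to XX was 1.31 (95% interval 0.789 to 2.17). Tshb (chromosome 3, bases 102777398 to 102789082) was at or below background on 8 of 10 arrays. It exceeded it on XpO 15 (54.5) and XX_InX 1 (116.5), lay from 9.4 to 80.6 on the others, and did not pass the intensity filter for testing.

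Of the 8 probe sets, 6 (1 for each gene but Tshb) passed the filter. In XO against XX, limma called 0 of the 5 other than Prl, with 0 at an unadjusted p under 0.05, where 0.0115% of all 8695 probe sets were called (1, Xist). Of these 5, 2 had higher and 3 lower estimates, with a median log2 difference of -0.06 against 0.00 over all tested probe sets. The counts of calls were also 0 of 5 for XmO against XX_Paf (background 0.0230%) and for XpO against XX_InX (background 0.0115%), with 0 at an unadjusted p under 0.05 in each. Over all 8695 tested probe sets, 226 had an unadjusted p under 0.05 in XO against XX. The number was 481 in XmO against XX_Paf and 294 in XpO against XX_InX. Of the same 5, Cga and Lhb were lower on both XpO arrays than on both XX_InX arrays, as were 12.1% of all tested probe sets. Prl was lower too, but it is left out of this comparison because it was chosen for its values.

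The difference between Prl and another hormone gene was not tested, because Prl was chosen for its values. The precision differed between the genes, with 95% intervals of the ratio of XO to XX from 0.747 to 1.06 for Lhb and from 0.473 to 2.31 for Pomc.

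**Figure D2:**
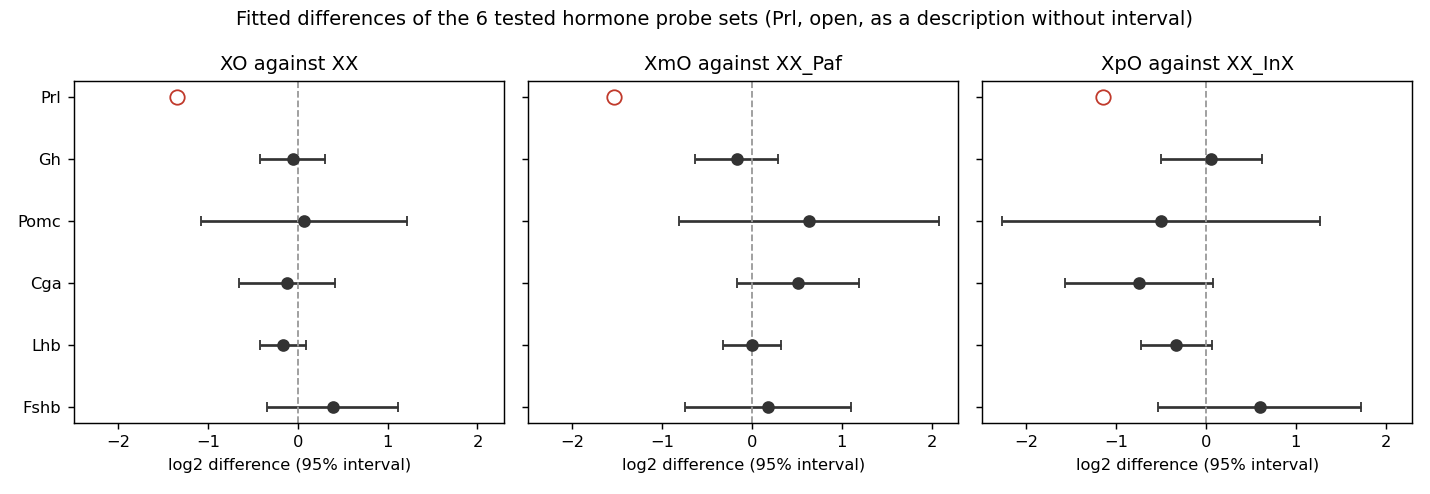
Fitted log2 differences of the 6 tested hormone probe sets in 3 panels (XO minus XX, XmO minus XX_Paf and XpO minus XX_InX). Filled points have 95% intervals and Prl, the open point, has none because it was chosen for its values. Prl lies at -1.34, -1.54 and -1.15, and every interval of the other genes includes 0.

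Whether the XO difference of Prl differed between the crosses was not tested, since its values in both crosses chose the genes; the fitted values were -1.54 and -1.15. Of the other probe sets, 0 of 5 were called for a difference of the XO effect between crosses (background 0.0230%), and 1 (Cga) had an unadjusted p under 0.05. Such a p was found for 514 of all 8695 tested probe sets.

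The comparisons that do not set XO against XX were not those in which Prl was noticed, but they use the same arrays. A gene chosen as low in both XO groups and high in both XX groups tends to be alike within each pair. Prl is therefore described here without a test. Prl was at or below background on 2 of 3 XmO and 1 of 2 XpO arrays. Its ratio between the XO groups is therefore one of values near background. Between the XO groups, the fitted Prl in XmO was 0.813 of its value in XpO. Between the XX groups, the fitted Prl ratio was 1.07 in XX_Paf relative to XX_InX. Of the 5 tested hormone probe sets other than Prl, 0 were called in XmO against XpO (background 0.0115%). At an unadjusted p under 0.05 there was 1, which was Cga (log2 difference 0.92, SE 0.35; limma, adjusted p = 0.969). None of these 5 was called in XX_Paf against XX_InX (background 0.0805%). At an unadjusted p under 0.05 there was 1, which was Lhb (log2 difference -0.44, SE 0.17; limma, adjusted p = 0.283). Over all 8695 tested probe sets, 420 had an unadjusted p under 0.05 in XmO against XpO and 1199 in XX_Paf against XX_InX. The arrays did not overlap for Gh and Cga between XmO and XpO, 2 of these 5, as for 17.4% of all tested probe sets. Between XX_Paf and XX_InX they did not overlap for Lhb and Fshb, also 2 of these 5, as for 37.1% of all.

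Whether a pituitary was left on some brains in dissection is not in the labels, so the arrays were compared for whether the hormone genes rose and fell together. Correlations are of log2 intensities over the 10 arrays after subtraction of each group's mean, and are given as a description. Prl and Gh had r = -0.15. Without the subtraction they had r = 0.12 and Spearman's rho = 0.15, and r = -0.07 when XmO 2 and XmO 7, the arrays farthest from the median of Prl, were left out. The array of highest Gh, XX_Paf 2 (690.5), had a Prl of 172.5, below that of XX_InX 19 alone, while XmO 2, with a Gh of 555.7, had the lowest Prl of all, 36.1. With Prl, the 5 other tested probe sets had r from -0.27 (Lhb) to 0.29 (Cga). Without the subtraction, leaving out XmO 2 and XmO 7 moved r from -0.03 to 0.60 for Cga and from -0.28 to -0.48 for Fshb, so these values rest on few arrays. Over all 15 pairs of tested hormone probe sets r ran from -0.30 to 0.63, and the highest was that of Pomc and Fshb. The points share array scaling, and Prl and Fshb lie near background. How much pituitary RNA each sample held was not measured.

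Among the tested transcription factors and receptors of the pituitary lists, Sstr5 and Crhr1 had the highest r with Prl. Sstr5, a somatostatin receptor, was 101.7, 84.8 and 82.9 on the XmO arrays and 90.2, 101.2 and 106.8 on the XX_Paf arrays. It was 90.1 and 95.6 on the XpO arrays and 121.1 and 132.5 on the XX_InX arrays. Sstr5 was dim, above background on 9 of 10 arrays, with 82.9 against a background of 136.6 on XmO 7. Its r with Prl was 0.89 within groups and 0.75 without the subtraction (rho = 0.79, and r = 0.58 without XmO 2 and XmO 7). Crhr1, the corticotroph receptor for CRH, was between 161.4 and 247.5 on XO and between 188.7 and 299.6 on XX arrays. Its r with Prl was 0.64 within groups and 0.65 without the subtraction (rho = 0.55, and r = 0.24 without the same 2 arrays). The other 4 tested receptors had r within groups from -0.10 (Sstr4) to 0.45 (Drd2). The 9 tested transcription factors had r from -0.62 (Six3) to 0.55 (Nr5a1), with Pitx1 at 0.48 and Lhx3 at 0.42. These receptors are also made in the brain, and the part of pituitary tissue in the Prl values was not tested.

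**Figure D3:**
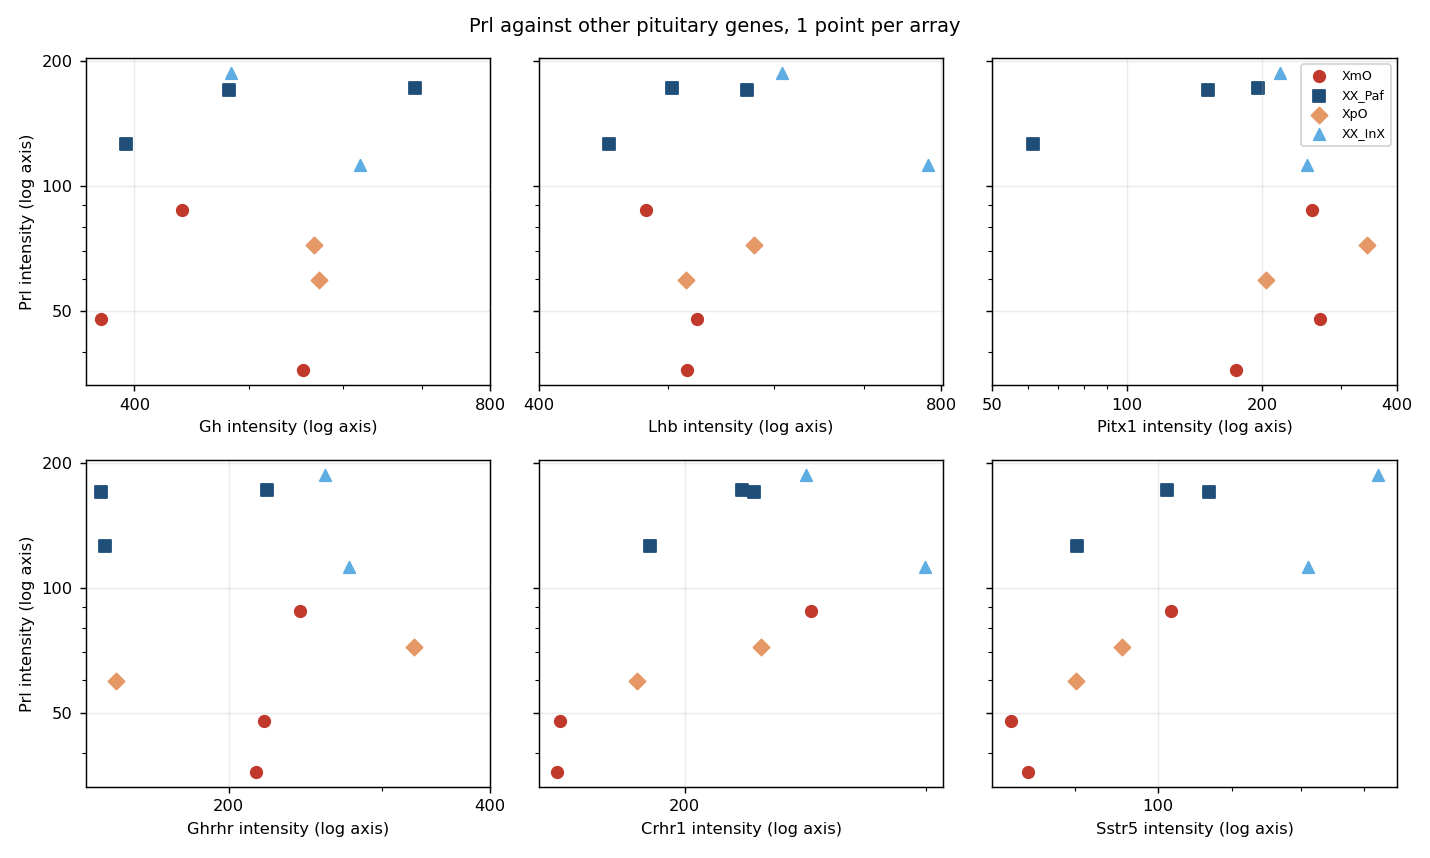
Intensity of Prl (y axis, log) against that of Gh, Lhb, Pitx1, Ghrhr, Crhr1 and Sstr5 (x axes, log), 1 point per array, coloured by group. Over the plotted points, r with Prl is 0.75 for Sstr5, 0.65 for Crhr1, 0.12 for Gh, 0.20 for Lhb, -0.27 for Pitx1 and -0.09 for Ghrhr. These values include the XO and XX difference for which Prl was chosen. After subtraction of group means, r is 0.89, 0.64, -0.15, -0.27, 0.48 and 0.31 in the same order.

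Other pituitary genes were taken from lists. Of 16 transcription factors of pituitary development, 11 were measured and 9 tested. In XO against XX, limma called 0 of the 9, with 0 at an unadjusted p under 0.05. There were 7 higher and 2 lower estimates, with a median log2 difference of 0.08. Over all 8695 tested probe sets, 0.0115% were called in this contrast and 226 had an unadjusted p under 0.05. Counts of 0 in a list this short, or in those below, are near that share. Pitx1, a homeobox factor that marks the early pituitary and all its later cell types, was between 175.0 and 342.6 on the XO arrays and between 61.6 and 251.6 on the XX arrays (log2 difference 0.54, SE 0.30), so its estimate had the sign opposite to that of Prl. The zinc finger factor Gata2, which acts in gonadotrophs and thyrotrophs and also in the brain, had 0.13 (SE 0.15). The immediate early genes Nr4a1 and Egr1 had 0.18 (SE 0.24) and 0.08 (SE 0.15). Hesx1, an early pituitary and forebrain factor, and Six6 were at or below background on all 10 arrays, and Lhx3, which pituitary formation requires, was above it on 5. The summed intensity of the 11 probe sets was 4042 to 4761 in XmO against 3826 to 4322 in XX_Paf, and 4116 to 5018 in XpO against 4136 to 4779 in XX_InX, so the groups of each cross overlapped. Nr5a1, a gonadotroph factor read here by its brightest probe set, made up much of these sums, at 1957 to 2909 per array. Without it the sums were 1853 to 2346 in XmO against 1869 to 1988 in XX_Paf, and 1848 to 2248 in XpO against 1791 to 1900 in XX_InX. How much of these intensities came from pituitary and how much from brain cells was not measured.

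Of 12 receptors through which hypothalamic and other signals act on pituitary cells, 10 were measured and 6 tested. In XO against XX, 0 of the 6 were called (background 0.0115%), with 0 at an unadjusted p under 0.05 (226 of all 8695). Ghrhr, the somatotroph receptor for growth hormone-releasing hormone, was between 148.6 and 326.6 on XO and between 142.7 and 275.1 on XX arrays (log2 difference 0.08, SE 0.22). Drd2, the dopamine receptor that restrains prolactin release and is also abundant in the striatum, had 0.12 (SE 0.15). Crhr1 and Sstr5, the tested receptors with the highest r with Prl, had -0.29 (SE 0.17) and -0.30 (SE 0.22). Gnrhr, the gonadotroph receptor for GnRH, was at or below background on all 10 arrays. The summed intensity of the 10 was 2014 to 2104 in XmO against 1794 to 2136 in XX_Paf, and 1814 to 2480 in XpO against 2232.8 to 2234.5 in XX_InX.

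Of 15 releasing hormones and peptides of the hypothalamus, which direct the pituitary, 11 were measured and tested. None was called in XO against XX (0 of 11, by limma, background 0.0115%). At an unadjusted p under 0.05 there were 0 (226 of all 8695), and 6 had higher and 5 lower estimates. Avp, the vasopressin gene, had 0.64 (SE 0.46), Npy 0.10 (SE 0.09), Ghrh -0.31 (SE 0.29) and Trh, the releasing hormone for TSH and prolactin, -0.27 (SE 0.30). Of 12 genes of secretory granules and prohormone processing, which endocrine cells and neurons share, 10 were tested. Against the same background 0 were called, with 0 at an unadjusted p under 0.05. Their estimates were 5 higher and 5 lower, among them Dlk1 (-0.14, SE 0.11), Scg5 (-0.13, SE 0.11), Scg3 (0.12, SE 0.16) and the prohormone convertase gene Pcsk1 (0.20, SE 0.31).

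Markers of tissues next to the brain also varied between arrays. XX_Paf 2 stood apart in skeletal muscle genes, with a summed intensity of 4759 over 12 probe sets where the other 9 arrays lay from 1083 to 1982, and Acta1, skeletal muscle actin, at 2448. Without that array the log2 difference of Prl was -1.30 for XO against XX and -1.46 within the Paf cross, and that of Gh was 0.05 for XO against XX. Of 4 choroid plexus genes tested, 0 were called in XO against XX (background 0.0115%) and 1, Ttr, had an unadjusted p under 0.05. Such a p was found for 226 of all 8695 tested probe sets. Ttr, the transthyretin gene, was between 908 and 2375 on XO and between 1724 and 2917 on XX arrays (log2 difference -0.53, SE 0.20; limma, adjusted p = 0.9995). The folate receptor gene Folr1 had -0.66 (SE 0.31). The correlation of Ttr with Prl was r = -0.55 within groups, 0.27 without the subtraction (rho = 0.31) and 0.72 when XmO 2 and XmO 7 were left out. Acta1 had r = 0.57 within groups and 0.47 without the subtraction. Other muscle genes went both ways within groups, with r = 0.74 for Myl1, 0.36 for Mylpf and -0.72 for Ckm. The part of these tissues in the Prl values was not tested.

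The globin gene Hba-a1 was called in XX_Paf against XX_InX (10866 ± 2001, n = 3, against 3674 ± 1133, n = 2; limma, adjusted p = 0.0211), a comparison in which Prl was at 156 ± 26.1 and 150 ± 53.0. Of 5 blood genes tested, 0 were called in XO against XX (background 0.0115%), with 0 at an unadjusted p under 0.05 (226 of all 8695). The same counts, 0 and 0 of 5, held for genes of bone, cartilage and skin, and of 7 muscle genes tested 0 were called.

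The size of the Prl difference varied with the arrays used, while its sign was fixed by the lack of overlap. Leaving out 1 array at a time gave log2 differences from -1.53 (without XX_InX 1) to -1.16 (without XX_InX 19) for XO against XX. They ran from -1.90 (without XmO 1) to -1.26 (without XmO 2) within the Paf cross, and from -1.51 to -0.78 within the In(X) cross (without XX_InX 1 and XX_InX 19). Of the other genes, Gh, Pomc and Cga changed sign with 1 or another array left out, and Lhb and Fshb did not. Fshb did not pass the intensity filter without XmO 7 or without XpO 18.

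**Figure D4:**
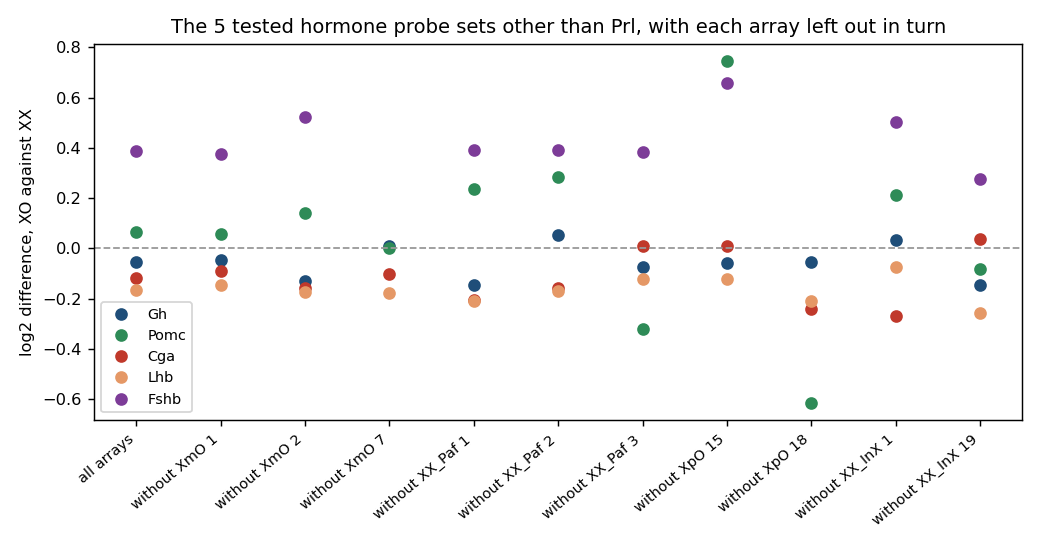
Log2 difference of XO against XX (y axis) for the 5 tested hormone probe sets other than Prl, with all arrays and with each array left out in turn (x axis). Gh stays between -0.15 and 0.05, Lhb between -0.26 and -0.08 and Cga between -0.27 and 0.04, while Pomc moves from -0.61 to 0.75 and Fshb from 0.28 to 0.66.

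A rule took the probe sets with the highest Pearson's r of log2 intensities over the 10 arrays. Only tested probe sets with 1 gene symbol were ranked, the hormone's own gene left out. The genes most alike to Prl were Grk5 (r = 0.95), Xist (0.89), Txndc16 (0.87), Plk1 (0.87) and Lamb2 (0.84). None is a pituitary hormone gene, but r over all arrays includes the XO and XX difference for which Prl was chosen. After subtraction of the group means the same genes had r of 0.87, 0.32, 0.79, 0.96 and 0.40 with Prl. The genes most alike to Gh were Tk1 (0.89), Nin (0.88), Adarb1 (0.87), Mogs (0.87) and Kif5a (0.86). No gene was among the 5 most alike to both. Lists of 5 from so many tested probe sets would seldom share a gene or hold a hormone gene. Neither point therefore tells whether Prl and Gh varied together.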

How the data were processed

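Brain RNA was measured on 10 arrays, each with a linear intensity for every probe set in the deposited table. How the authors summarised and scaled the probes is not stated by the labels or the file header. The deposited intensity values had the same mean on each array (500.3 after trimming 2% at each end). Control probe sets (66) were left out. Names came from a platform gene table (1 symbol for 10833 probe sets, several for 396, none for 1193) and positions from RefSeq, GRCm38.p6.

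Values under the 10th percentile (15.0) were raised to it and taken to log2. The 8695 probe sets with a mean at or over the 30th percentile were fitted with limma 3.58.1 in R 4.3.3, with 1 mean per group, an intensity trend and 6 residual degrees of freedom. Tests were two-sided with Benjamini-Hochberg adjustment within each contrast over all tested probe sets, and a call is an adjusted p under 0.05. Each list gene was read by its probe set of highest mean. Named genes are all hormone probe sets, the 5 probe sets most alike to each hormone gene above background on at least 5 arrays, and up to 4 genes of a list by smallest p in XO against XX, with Xist. Some context genes (Ghrhr, Lhx3, Hesx1, Six6, Gnrhr, Nr5a1, Six3, Sstr4) were added from the lists after their values were seen, as was the sum without Nr5a1. The members and lists were chosen with earlier results of these data known. The fit was tested on simulated data. The number of arrays limits the precision.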

Additional observations from a re-analysis of the deposited data

How the results depend on the processing

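Leaving out 1 array moved the size of the Prl difference in XO against XX from -1.53 to -1.16, and its sign follows from the values it was chosen for. Over the 6 fitted hormone probe sets and 6 contrasts, 549 of 558 values moved by less than the residual SD, 9 moved by more, and 25 changed sign. Leaving Prl aside, no hormone probe set was called under any alternative run.

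Over all probe sets, the number called without the intensity filter was 5 in XO against XX, and 4 (XmO, XX_Paf) and 7 (XpO, XX_InX) within the crosses. It was 3 between the XO groups, 17 between the XX groups and 5 in the difference between crosses. Without the intensity trend it was 2 between the XX groups and 0 for the difference between crosses. With 1 array left out it ran, in the same order of contrasts, from 1 to 3, 2 to 4, 1 to 4, 1 to 7, 2 to 17 and 0 to 4. The correlation of Prl and Gh within groups, -0.15, became 0.00064 with a floor at 50 and ran from -0.44 to 0.22 with 1 array left out. The causes were not tested.

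A replicate block on the numbers that groups share (random, correlation -0.05) gave 1, 2, 1, 1, 7 and 2 calls, the same counts as without it. Leaving Prl aside, it gave 0 for the hormone genes. Arrays of the same number had deviations correlated at -0.01 (XmO 1 and XX_Paf 1), -0.04 (XmO 2 and XX_Paf 2), 0.03 (XmO 1 and XX_InX 1) and -0.12 (XX_Paf 1 and XX_InX 1). The labels do not say what a shared number means. Deviations within groups of 2 or 3 arrays cannot decide it. XpO and XX_InX share no number. Signal over background limits Prl on 3 XO arrays, Fshb, Tshb and the dimmer Cga probe set, and groups of 2 or 3 arrays limit every interval.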

Other observations

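The prolactin family of the mouse includes many placental genes that arose as copies of Prl. Of 26 such genes, 9 were measured by 10 probe sets. Their intensities ran from 0.6 to 118.2, 3 of 100 values were above background, and 0 probe sets passed the intensity filter, so the family gave no further readout in brain.

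Receptors of the pituitary hormones were measured for 7 of 10 genes and tested for 6. In XO against XX, limma called 0 of 6 (background 0.0115%), with 0 at an unadjusted p under 0.05 (226 of all 8695). The log2 differences were -0.12 (SE 0.18) for Mc1r and -0.11 (SE 0.41) for Mc3r, receptors of melanocortins, -0.05 (SE 0.17) for Fshr, the FSH receptor, and -0.03 (SE 0.21) for Mc2r, the ACTH receptor. Tshr, the TSH receptor, was at or below background on all 10 arrays.

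The 5 probe sets most alike to Pomc over the 10 arrays were Zfp787 (r = 0.94), Cdk9 (0.88), Smyd1 (0.88), Frat2 (0.88) and Eya3 (0.87). Without XX_Paf 3 and XpO 15, the low Pomc arrays, these correlations lay between 0.26 and 0.70. The highest for Cga were Notch4 (0.91) and Zfp106 (0.89), with 1700017B05Rik, Ntsr2 and Pdlim4 next, and for Lhb they were Mfsd1 (0.92) and Fzd8 (0.91), with Gp1bb, Rps24 and Snx2 next. These are descriptions of the arrays, taken as the highest over all tested probe sets with 1 gene symbol, the hormone's own gene left out.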
